A study of Mus musculus with 10 samples.

Results

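The 10 genes described here are linked to ATF4, the transcription factor of the integrated stress response, and were chosen by name: Atf4, Ddit3, Asns, Trib3, Chac1, Psat1, Phgdh, Fgf21, Gdf15 and Sesn2. All 10 were among the 41249 gene identifiers counted in RNA from interscapular brown adipose tissue (iBAT) of 10 mice. The mice were 5 whole-body constitutive Axl KO animals and 5 wild-type (WT) animals, each sequenced as its own library, and AXL is a receptor tyrosine kinase of the TAM family. All were males given a high-fat diet (HFD), for 24 weeks from 6 to 8 weeks of age per the series' design text. The study's paper states a slightly later start and a slightly longer diet. No mouse on a chow diet was among the 10. The paper reports lower body weight in Axl KO than in WT males on HFD, and body weight was not among the values used here. The knockout used the "knockout-first" allele Axl tm1a(EUCOMM)HMGU, carried in every tissue, in which a splice acceptor, LacZ and neomycin cassette traps the transcript after the first exons. Differences can therefore come from any organ, and none can be assigned to brown adipocytes alone.

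In the integrated stress response, sensor kinases respond to amino acid shortage, unfolded protein in the endoplasmic reticulum, haem shortage or double-stranded RNA by phosphorylating the initiation factor eIF2. General translation falls while ATF4, whose mRNA carries upstream open reading frames, is translated more, and ATF4 then switches on genes for amino acid synthesis, transport and redox control. Because ATF4 is largely set at translation, its mRNA is an incomplete measure of its activity, and its targets are usually read instead. In brown fat the pathway is known for its response to mitochondrial stress, to which FGF21 and GDF15 belong as secreted signals.

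ATF4 binds as a dimer with C/EBP proteins to composite elements, and the short core TGATGNAA was searched on both strands of the RefSeq promoters (GRCm38.p6), each spanning 250 bases before to 50 bases after an annotated start. All 10 genes had at least 1 such window, 12 in all. The core was found in 4 of the 10 genes, against 1219 of 27025 genes (4.51%) and 1304 of 32851 windows (3.97%) overall. These 4 matches are shown because they are the places where the letters of the ATF4 element lay within the windows searched. Each is written 5′ to 3′ on the strand of its gene, with the 8 matching bases in capitals.
Asns, chr6:7693214-7693243, minus strand, match starting 23 bases before the start: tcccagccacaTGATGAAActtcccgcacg
Trib3, chr2:152344028-152344057, minus strand, match starting 14 bases after the start: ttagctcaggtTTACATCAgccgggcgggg
Chac1, chr2:119351038-119351067, plus strand, match starting 193 bases before the start: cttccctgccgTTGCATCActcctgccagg
Fgf21, chr7:45615611-45615640, minus strand, match starting 139 bases before the start: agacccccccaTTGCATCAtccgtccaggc
In Asns the core lay on the sense strand, and in Trib3, Chac1 and Fgf21 it lay on the opposite strand. For Atf4, Ddit3, Psat1, Phgdh, Gdf15 and Sesn2 these letters were not in the windows searched. Such a match is a description of the sequence, and binding was not measured.

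The libraries held 5431014 to 9580215 counted reads. Axl itself had 0.437 to 2.01 CPM (normalized read count, scaled to library size by TMM) in the 5 knockouts and 38.2 to 52.3 CPM in the 5 controls, and fell by 4.77 on the log2 scale (SE 0.2, adjusted p = 1.1e-07, edgeR quasi-likelihood test with Benjamini-Hochberg adjustment). It was the only gene of 13739 tested with an adjusted p under 0.05, a background of 0.00728%. Adipocyte markers (Ucp1, Cidea, Dio2, Cox8b, Adipoq, Plin1 and Fabp4) were abundant in every library (summed level 14220 to 19720 CPM). Of these 7, 6 were higher on average in the knockouts. Adipoq, Plin1 and Fabp4 are general to fat cells, so the sum is not specific to brown adipocytes. Fabp4 had the highest mean over the 10 mice (6731 CPM, against 4840 CPM for Ucp1). Skeletal muscle markers varied most. Their 8 genes summed to 5.56 to 3156 CPM in Axl KO mice and 773 to 3718 CPM in WT mice, with Axl KO mouse 2 (5.56 CPM) and Axl KO mouse 1 (21.6 CPM) far below the other 8. Fibroblast markers summed to 353 to 593 CPM in Axl KO mice and 514 to 686 CPM in WT mice, and macrophage markers to 111 to 205 CPM and 122 to 194 CPM. By fitted value, 0 of the 8 muscle, 0 of the 5 fibroblast and 3 of the 6 macrophage markers were higher in the knockouts. In bulk tissue, fewer cells of a type and less RNA per cell cannot be told apart.

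Among the ATF4-linked genes, 8 of 10 passed the filter of a mean above 1 CPM, and Fgf21 and Gdf15 did not. None of the 8 had an adjusted p under 0.05 by edgeR, with a lowest value of 0.599, and none by DESeq2. Over all 13739 tested genes, edgeR called 1 and DESeq2 called 9 at that threshold. At an unadjusted p under 0.05, edgeR called 0 of the 8 in either direction, where 3.86% of all tested genes were called lower and 4.54% higher in Axl KO mice. DESeq2 called 1 of the 8 lower at that level (Ddit3, unadjusted p = 0.0446, DESeq2 adjusted p = 0.716) and 0 higher, against backgrounds of 3.23% and 3.7%. The fitted value was below 0 for 7 of the 8 and above 0 for Asns, where 49.8% of all tested genes were above 0. The median log2 fold change was -0.19 for the 8, and -0.00059 over all tested genes. Such counts of direction, here and in the lists below, were not tested. No member separated the genotypes: the CPM of the groups overlapped for all 10 genes, while 0.619% of tested genes lay wholly lower and 0.735% wholly higher in Axl KO mice.

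**Figure D1:**
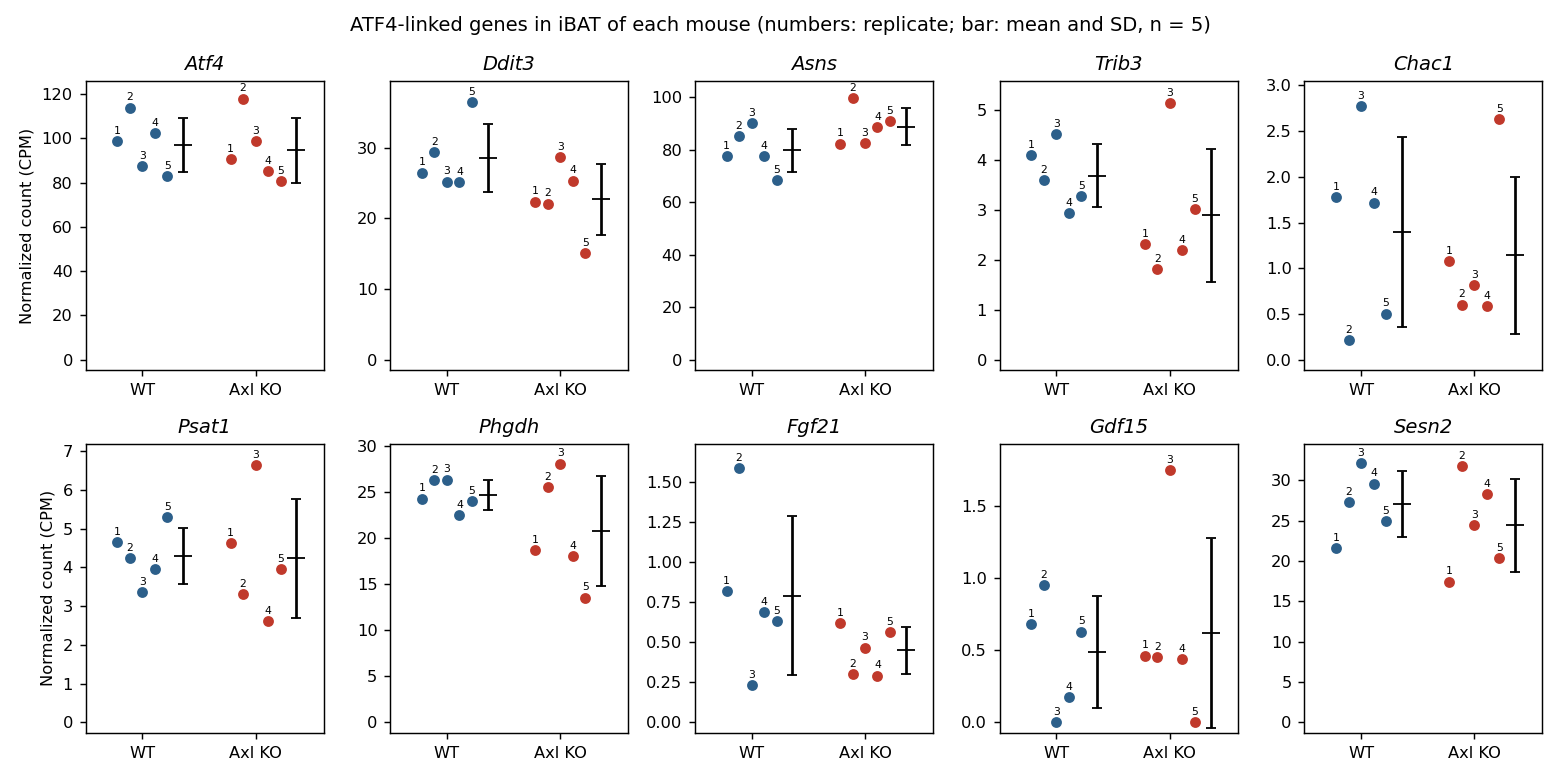
Normalized count (CPM, linear axis) of each of the 10 ATF4-linked genes in every mouse, WT in blue and Axl KO in red, with the replicate number beside each point and the mean and SD (n = 5) as a black bar. The groups overlap in all 10 panels, and Phgdh spreads more widely in Axl KO (13.6 to 28.1 CPM) than in WT (22.5 to 26.4 CPM).

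Atf4 (ENSMUSG00000042406, GRCm38 chr15:80255184-80257541, plus strand) encodes the transcription factor itself. Its levels in Axl KO mice 1 to 5 were 90.7, 118, 98.7, 85.2 and 80.7 CPM, and in WT mice 1 to 5 they were 98.7, 114, 87.5, 102 and 82.8 CPM. The highest and the lowest mouse were both knockouts, and the groups covered almost the same range. The means were 94.7 ± 14.7 and 97.1 ± 12.3 CPM (SD, n = 5), which gave a fitted log2 fold change of -0.03 (95% confidence interval -0.27 to 0.20, adjusted p = 0.948 by edgeR).

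Ddit3 (ENSMUSG00000025408, GRCm38 chr10:127290774-127296288, plus strand) encodes CHOP, a factor that ATF4 induces and that can drive cell death in prolonged stress. It came nearest to a difference among the members. Its values were 22.4, 22.1, 28.7, 25.3 and 15.1 CPM in Axl KO mice 1 to 5 and 26.5, 29.4, 25.2, 25.1 and 36.5 CPM in WT mice 1 to 5. In all, 3 knockouts lay below the lowest control and 2 controls lay above the highest knockout. The groups overlapped between 25.1 and 28.7 CPM, and the knockout median (22.4 CPM) lay below every control. The means were 22.7 ± 5.04 and 28.5 ± 4.77 CPM (SD, n = 5), which gave a fitted log2 fold change of -0.32 (95% confidence interval -0.65 to 0.01). The unadjusted p was 0.0553 and the adjusted p 0.599 by edgeR, and an exact permutation test of the CPM gave a two-sided p of 0.0873, where the smallest possible was 0.00794. Axl KO mouse 5, the lowest, was also the library with the fewest reads, and without it the log2 fold change was -0.21. Without WT mouse 5, the highest, it was -0.22 (adjusted p from 0.233 to 0.812 by edgeR over the fits that left out 1 mouse). The exons of Ddit3 share 68 bases with Mars and 13 with Gm4189 on the opposite strand. The strand setting of the counting is not given in the sources used here, so a part of these reads may belong to a neighbour. A second gene annotated as Ddit3 (ENSMUSG00000116429) shares 105 exonic bases on the same strand and was not among the counted identifiers.

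Trib3 (ENSMUSG00000032715, GRCm38 chr2:152337422-152344032, minus strand) encodes a pseudokinase that ATF4 and CHOP induce and that feeds back on both. Axl KO mice 1 to 5 had 2.31, 1.80, 5.13, 2.18 and 3.01 CPM, and WT mice 1 to 5 had 4.10, 3.60, 4.51, 2.92 and 3.27 CPM. Of the knockouts, 3 were below every control, whereas Axl KO mouse 3 was above every other animal. The means of 2.89 ± 1.33 and 3.68 ± 0.634 CPM (SD, n = 5) gave a log2 fold change of -0.33 (95% confidence interval -0.91 to 0.25, adjusted p = 0.747 by edgeR), and without Axl KO mouse 3 it was -0.68 with an adjusted p of 0.194 by edgeR (0.194 to 0.899 over the fits that left out 1 mouse).

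Asns (ENSMUSG00000029752, GRCm38 chr6:7675169-7693254, minus strand) encodes asparagine synthetase, a classic target of ATF4 in amino acid shortage. Its levels were 82.4, 99.7, 82.7, 88.8 and 90.9 CPM in Axl KO mice 1 to 5, and 77.5, 85.2, 90.3, 77.5 and 68.3 CPM in WT mice 1 to 5. It was the sole member above the filter with a higher mean in the knockouts (88.9 ± 7.09 against 79.8 ± 8.38 CPM, SD, n = 5). The log2 fold change of 0.15 (95% confidence interval -0.02 to 0.33) had an unadjusted p of 0.078 and an adjusted p of 0.617 by edgeR. The exact permutation test gave p = 0.103.

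Phgdh and Psat1 encode the first and second enzymes of serine synthesis from glycolysis. Phgdh (ENSMUSG00000053398, GRCm38 chr3:98313170-98339990, minus strand) measured 18.7, 25.6, 28.1, 18.1 and 13.6 CPM in Axl KO mice 1 to 5, and 24.3, 26.3, 26.4, 22.5 and 24.0 CPM in WT mice 1 to 5. Of the knockouts, 3 lay below the narrow range of the controls and 1 above it. The coefficient of variation of Phgdh was 28.5% in Axl KO and 6.65% in WT mice, and this difference in spread was not tested. The means were 20.8 ± 5.93 and 24.7 ± 1.64 CPM (SD, n = 5, log2 fold change -0.24, 95% confidence interval -0.58 to 0.10, adjusted p = 0.682 by edgeR). Psat1 (ENSMUSG00000024640, GRCm38 chr19:15904678-15947337, minus strand) measured 4.63, 3.31, 6.65, 2.62 and 3.95 CPM in the knockouts and 4.64, 4.23, 3.35, 3.95 and 5.29 CPM in the controls. The means of Psat1 were almost equal, 4.23 ± 1.54 and 4.29 ± 0.726 CPM (SD, n = 5). Its log2 fold change was -0.0031 (95% confidence interval -0.53 to 0.52, adjusted p = 0.999 by edgeR).

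Sesn2 and Chac1 act in nutrient sensing and redox balance. Sesn2 (ENSMUSG00000028893, GRCm38 chr4:132492032-132510501, minus strand) encodes sestrin 2, a leucine-binding inhibitor of mTORC1. It had 17.4, 31.7, 24.5, 28.2 and 20.3 CPM in Axl KO mice 1 to 5 and 21.6, 27.3, 32.1, 29.6 and 24.9 CPM in WT mice 1 to 5. Its groups overlapped over most of their range, with means of 24.4 ± 5.77 and 27.1 ± 4.09 CPM (SD, n = 5, log2 fold change -0.14, 95% confidence interval -0.48 to 0.19, adjusted p = 0.81 by edgeR). Chac1 (ENSMUSG00000027313, GRCm38 chr2:119351229-119354381, plus strand) encodes an enzyme that degrades glutathione, and it was close to the limit of these libraries with 2 to 24 reads per mouse. Its CPM ran from 0.582 to 2.64 in Axl KO mice (median 0.816) and from 0.212 to 2.78 in WT mice (median 1.72), so both groups held low and high animals. The log2 fold change of Chac1 was -0.33, and its 95% confidence interval of -1.63 to 0.96 left a 2-fold difference downwards within reach (adjusted p = 0.896 by edgeR).

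**Figure D2:**
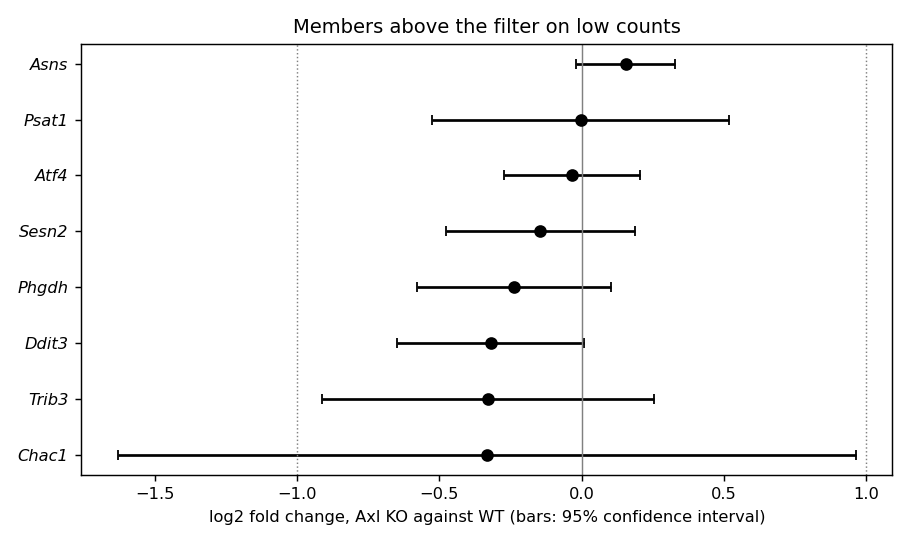
Log2 fold change, Axl KO against WT, of the 8 members above the filter (points) with 95% confidence intervals from the edgeR fit (bars); dotted lines mark a 2-fold difference. All 8 intervals contain 0, from the narrow one of Asns (-0.02 to 0.33) to the wide one of Chac1 (-1.63 to 0.96).

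Fgf21 and Gdf15, the secreted members, were barely detected. Fgf21 (ENSMUSG00000030827, GRCm38 chr7:45613886-45615490, minus strand) encodes a hormone made by liver and, under stress, by brown fat and muscle. It had 4, 2, 4, 2 and 3 reads in Axl KO mice 1 to 5, and 6, 15, 2, 4 and 5 reads in WT mice 1 to 5, or 15 reads against 32. In CPM, 4 of the 5 controls (0.629 to 1.59 CPM) were above the highest knockout (0.617 CPM), and WT mouse 3 (0.231 CPM) was the lowest of all. The exact permutation test of the CPM gave p = 0.143, and the edgeR fit without the filter gave a log2 fold change of -0.84 (SE 0.5, adjusted p = 0.709). Hepatocyte markers summed to at most 0.755 CPM in any library. Gdf15 (ENSMUSG00000038508, GRCm38 chr8:70629393-70632456, minus strand) encodes a stress cytokine that acts on the hindbrain. It had 3, 3, 15, 3 and 0 reads in the knockouts and 5, 9, 0, 1 and 5 reads in the controls. Axl KO mouse 3 gave 15 of the 24 knockout reads. A count of 0 allows up to 3 reads, which is 0.552 CPM in Axl KO mouse 5 and 0.358 CPM in WT mouse 3, and this limit covers counting error only. The exact permutation test of the Gdf15 CPM gave p = 0.754, and the fit without the filter gave a log2 fold change of 0.42 (SE 0.69, adjusted p = 0.885, edgeR). No difference in Fgf21 or Gdf15 was detected from these few reads.

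The members differed far more from each other than between genotypes. Per kilobase of exon (RPKM, computed from the CPM and the summed exon length), the mean over the 10 mice was 40.7 ± 5.45 for Atf4, 30.8 ± 3.2 for Asns and 15.0 ± 3.24 for Ddit3 (SD over mice). Atf4 exceeded Asns and Asns exceeded Ddit3 in 10 of 10 mice. Phgdh (9.15 ± 1.85 RPKM) and Sesn2 (7.42 ± 1.42 RPKM) followed, and their ranges overlapped, with Phgdh the higher in 8 of 10 mice. A gap separated these 5 from the rest: the lowest Sesn2 value was 5.02 RPKM and the highest Trib3 value 2.41 RPKM. Trib3 averaged 1.55 ± 0.501, Psat1 1.00 ± 0.267, Chac1 0.776 ± 0.556, Fgf21 0.651 ± 0.41 and Gdf15 0.299 ± 0.279 RPKM, and neighbours in this lower order overlapped. By CPM, Atf4 stood at percentile 88 of the tested genes and Chac1 at percentile 3.82.

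The rest of the pathway was read through 7 lists that held 73 genes, of which 65 passed the filter. None of the 65 had an adjusted p under 0.05 by edgeR or by DESeq2, which called 1 and 9 of all 13739 tested genes. At an unadjusted p under 0.05, edgeR called 6 higher and 2 lower (DESeq2 called 3 higher and 1 lower). Over all tested genes the shares were 4.54% higher and 3.86% lower by edgeR, and 3.7% and 3.23% by DESeq2. The median log2 fold change of the 65 genes was 0.02. All such genes named below had adjusted p values of 0.571 to 0.579 by edgeR.

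The upstream machinery held 17 genes, all tested, of which 11 had a higher mean in the knockouts (median log2 fold change 0.07). Eif2ak3, which encodes PERK, the kinase of the endoplasmic reticulum, had 26.5, 26.0, 27.4, 27.8 and 27.5 CPM in Axl KO mice 1 to 5 and 23.3, 25.3, 25.3, 24.6 and 23.9 CPM in WT mice 1 to 5. Every knockout lay above every control, as for 0.735% of all tested genes, and the step was small (27.0 ± 0.746 against 24.5 ± 0.864 CPM, SD, n = 5, log2 fold change 0.14, SE 0.06, unadjusted p = 0.0353 and adjusted p = 0.571, edgeR). In Eif2ak4, which encodes the amino acid sensor GCN2, every knockout lay below every control, as for 0.619% of tested genes. Its range was 21.45 to 21.98 CPM in the knockouts and 22.01 to 23.70 CPM in the controls (log2 fold change -0.06, unadjusted p = 0.418 and adjusted p = 0.828, edgeR). For both kinases the exact permutation test of the CPM gave an unadjusted p of 0.00794, the smallest possible, which any gene without overlap reaches. Eif2s1, the phosphorylated subunit of eIF2, had a log2 fold change of 0.16 (unadjusted p = 0.0226), and Eif2b4, a subunit of its exchange factor, had 0.17 (unadjusted p = 0.0303). DESeq2 called none of the 17 genes at that level, with unadjusted p values of 0.123 for Eif2ak3, 0.052 for Eif2s1 and 0.0835 for Eif2b4. The 2 most abundant genes of the list showed log2 fold changes of -0.0067 (Ppp1r15b, a cofactor of the eIF2 phosphatase) and 0.14 (Dnajc3, an inhibitor of the kinases).

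The partner and downstream transcription factors had 3 higher and 4 lower of 7 tested, none at an unadjusted p under 0.05 by edgeR (DESeq2 0). Their most abundant members were Cebpg, a dimer partner of ATF4 (130.6 ± 2.59 CPM in Axl KO and 122.4 ± 7.29 CPM in WT, SD, n = 5), and Nfe2l2, which encodes NRF2 (91.3 ± 11.3 and 89.0 ± 14.0 CPM). Of 11 enzymes of serine, one-carbon, proline and transamination metabolism, 8 were tested and 5 had a higher mean in the knockouts. Psph, which completes serine synthesis after Phgdh and Psat1, had 23.8 ± 6.12 CPM in Axl KO mice and 18.6 ± 1.29 CPM in WT mice (SD, n = 5, log2 fold change 0.35, SE 0.15, unadjusted p = 0.0346, edgeR). Without Axl KO mouse 1 the log2 fold change of Psph was 0.22, with an unadjusted p of 0.109 by edgeR. Got1 (log2 fold change 0.34) and Gpt2 (log2 fold change -0.08), both transaminases, had adjusted p values of 0.768 and 0.876 by edgeR. Without Axl KO mouse 5, which had 73.8 CPM of Got1, the log2 fold change of Got1 was -0.10.

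The 12 aminoacyl-tRNA synthetases, which charge tRNAs and are a broad output of ATF4, were all tested. Their log2 fold changes had a median of 0.02, with 10 above 0. Gars (glycine) had 159 ± 19.7 CPM in Axl KO and 138.4 ± 3.49 CPM in WT mice (SD, n = 5, log2 fold change 0.20, unadjusted p = 0.0227 by edgeR). Without Axl KO mouse 5 the value for Gars was 0.12 (unadjusted p = 0.0504). Eprs, the most abundant, had a log2 fold change of 0.0051. Amino acid transporters had 2 higher and 4 lower of 6 tested (median log2 fold change -0.18) with none at an unadjusted p under 0.05 by edgeR or DESeq2. Slc1a5, the most abundant, measured 573 ± 49.0 and 627 ± 85.1 CPM, and Slc38a2 measured 125.1 ± 8.35 and 116.7 ± 4.07 CPM. Slc7a11 and Slc7a5, a cystine and a leucine carrier often used as markers of the response, were under the filter, with 5 and 13 reads summed over the knockouts and 6 and 16 over the controls.

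Of 10 further stress targets tested, 5 were higher and 5 lower in the knockouts. Map1lc3b, an autophagosome protein, had a log2 fold change of 0.16 (unadjusted p = 0.0164), Gadd45a, a growth arrest gene, had -0.86 (unadjusted p = 0.0265), and Chac2, the paralogue of Chac1, had -0.30 (unadjusted p = 0.0395, and 0.0775 by DESeq2). Gadd45a was low, at 1.19 ± 0.454 CPM in Axl KO and 2.22 ± 0.917 CPM in WT mice (SD, n = 5). Vldlr and Sqstm1, the most abundant of this list, had log2 fold changes of 0.07 and -0.09. Of 7 receptors for the secreted members, 5 were tested, and 4 of these had a higher mean in the knockouts. Klb, the co-receptor of FGF21, had 52.3 ± 5.54 and 47.1 ± 8.56 CPM, and Fgfr1 had 72.2 ± 5.26 and 69.4 ± 6.76 CPM (adjusted p = 0.725 and 0.853, edgeR). Gfral, the receptor of GDF15, had 0 reads in all 10 mice, which allows up to 0.313 to 0.552 CPM depending on the library.

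For comparison, 14 genes of the ATF6 and XBP1 branches, the other arms of the unfolded protein response, were read. They had 9 higher and 5 lower means in the knockouts (median log2 fold change 0.08). None had an adjusted p under 0.05 by edgeR or DESeq2, which called 1 and 9 of all 13739 tested genes. The chaperones Hspa5 (BiP) and Hsp90b1 were at log2 fold changes of -0.04 and 0.02, and Manf, a secreted stress protein, was at 0.28 (unadjusted p = 0.0266, adjusted p = 0.571, edgeR). Without Axl KO mouse 5, Manf was at 0.16 (unadjusted p = 0.0584).

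**Figure D3:**
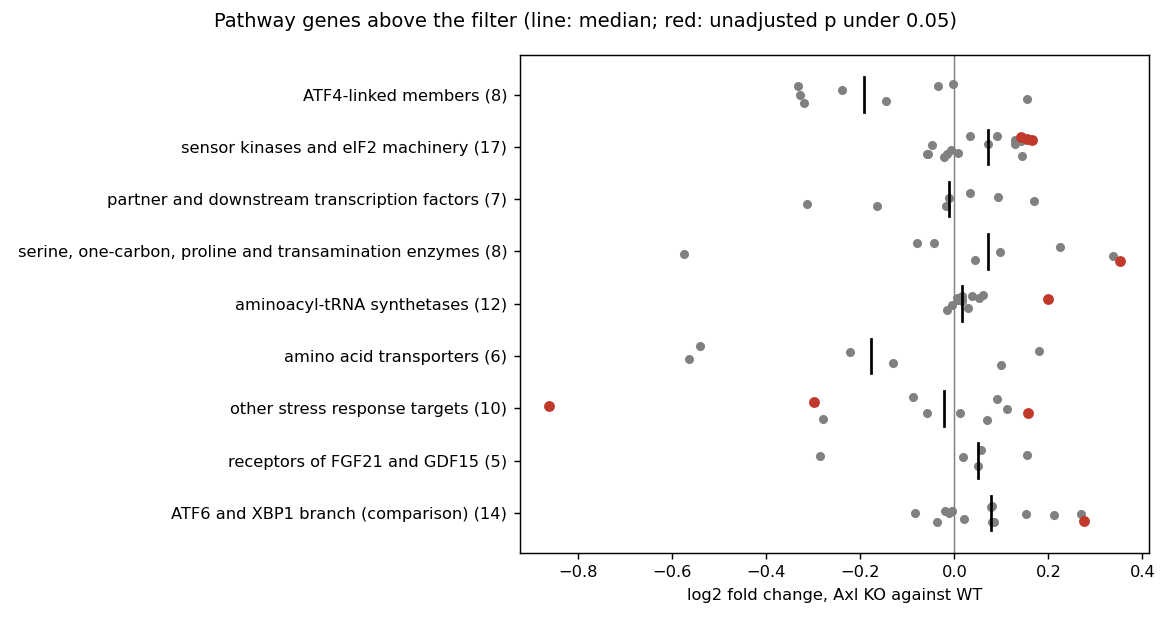
Log2 fold change, Axl KO against WT, of every gene above the filter in the member list and the 8 pathway lists (points, number tested in parentheses), with the list median as a black line and unadjusted edgeR p under 0.05 in red. The medians lie between -0.19 for the members and 0.08 for the ATF6 and XBP1 branch, and no point had an adjusted p under 0.05.

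Whether the members moved together from mouse to mouse was examined over the 10 mice on log2(CPM + 0.5). Of the 28 pairs among the 8 members above the filter, 16 had a Pearson r above 0 and the median r was 0.13. Taking deviations from the genotype means gave 17 pairs above 0 and a median of 0.13. No pair had an adjusted p under 0.05 for r or for Spearman's rho (permutation tests, 28 pairs). Atf4 mRNA correlated most with Phgdh (r = 0.60, permutation p = 0.0616, adjusted p = 0.376, rho = 0.55, permutation p = 0.105, adjusted p = 0.327; r = 0.57 without the 2 mice farthest from the Atf4 median). The highest value was that of Ddit3 and Phgdh (r = 0.73, permutation p = 0.02, adjusted p = 0.376, rho = 0.47, permutation p = 0.179, adjusted p = 0.5). It was 0.49 without the 2 mice farthest from the Ddit3 median. Within the 5 knockouts r was 0.79 and within the 5 controls, where Phgdh varied little, it was 0.0027. This difference was not tested, and r on deviations from the genotype means was 0.64. Both genes also correlated with library depth, as given below, and the cause of the relation was not tested. Ddit3 and Asns ran the opposite way (r = -0.65, permutation p = 0.0484, adjusted p = 0.376, rho = -0.56, permutation p = 0.0972, adjusted p = 0.327), with r = -0.41 without the 2 mice farthest from the Ddit3 median.

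**Figure D4:**
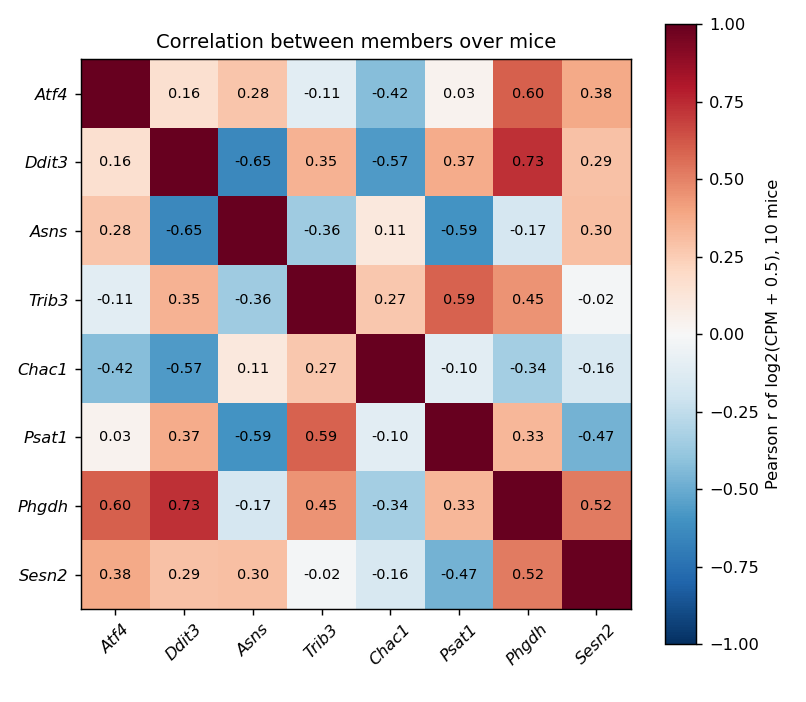
Pearson r between each pair of the 8 members above the filter over the 10 mice, on log2(CPM + 0.5), from blue (-1) to red (1). Positive and negative values are mixed, from -0.65 for Ddit3 and Asns to 0.73 for Ddit3 and Phgdh.

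Ranked by r against all 13738 other tested genes, the genes most like Atf4 were Slc35e3 (r = 0.93), Ddb2 (r = 0.90) and Ddx5 (r = 0.89), and those most like Ddit3 were Sox7 (r = 0.96), Vsir (r = 0.95) and Mipep (r = 0.94). The best-placed member was Phgdh in both lists, at rank 474 for Atf4 and rank 628 for Ddit3. Ddit3 stood at rank 4524 for Atf4. These values were picked as the highest of many over 10 mice and are given as a description.

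The muscle content and the depth of the libraries moved with some members. Trib3 correlated with the log2 skeletal muscle score (r = 0.73, permutation p = 0.0136, adjusted p = 0.0857, rho = 0.68, permutation p = 0.0347, adjusted p = 0.139), and r was 0.40 without the 2 muscle-poor knockouts, so the relation rested on them. With that score in the edgeR fit, the log2 fold change of Trib3 was -0.02 in place of -0.33, and with those 2 knockouts left out it was -0.07. For Chac1, r with the score was 0.47 (permutation p = 0.186, adjusted p = 0.497, rho = 0.72, permutation p = 0.0237, adjusted p = 0.127), and 0.93 without the same pair. The 3 WT mice rich in muscle markers (1, 3 and 4) had 1.72 to 2.78 CPM of Chac1, and the other 2 had 0.212 and 0.503 CPM. The fitted value of Chac1 was 0.27 with the score in the fit. Ddit3 and Phgdh correlated with the log2 total count instead (r = 0.73 and 0.75, permutation p = 0.0161 and 0.01, adjusted p = 0.0857 for both, rho = 0.78 and 0.79, permutation p = 0.011 and 0.0085, adjusted p = 0.0878 for both), with r = 0.52 and 0.56 without the 2 mice of lowest and highest depth. Within the knockouts r with the log2 total count was 0.97 for Ddit3 and 0.84 for Phgdh, and within the controls 0.31 and 0.93. Total counts ran from 5431014 to 8214841 in Axl KO mice and from 5952427 to 9580215 in WT mice. None of the 16 relations had an adjusted p under 0.05. The part of muscle content or depth in the members' values was not tested beyond these fits.

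**Figure D5:**
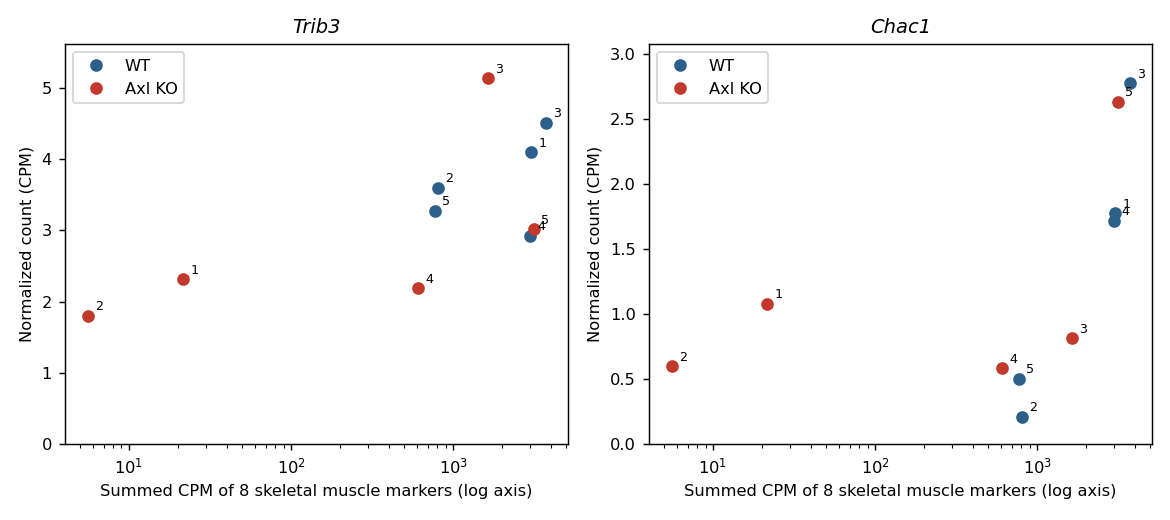
CPM of Trib3 (left) and Chac1 (right) against the summed CPM of 8 skeletal muscle markers (log axis) in each mouse, WT in blue and Axl KO in red, with replicate numbers. Axl KO mice 1 and 2 lie at the far left with 21.6 and 5.56 CPM of muscle markers, and the highest Chac1 values (2.64 and 2.78 CPM) are in mice with 3156 and 3718 CPM.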

How the data were processed

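RNA was extracted from snap-frozen iBAT with Trizol and made into TruSeq libraries. The labels give polyA RNA, whereas the study's methods describe removal of ribosomal RNA. The deposited values were raw counts per Ensembl gene, 1 table per mouse, made by the authors. The study's methods name Trim Galore and hisat2, but the submitters' processing notes list Trimmomatic 0.36, STAR 2.6.1c and GRCm38.p5, so the aligner is uncertain, and the counting tool and its strand setting are not given in the sources used here. Reads that are multi-mapped or shared by overlapping genes could therefore be split differently.

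Counts were fitted in edgeR 4.0.16 (R 4.3.3) with TMM scaling, genes of mean CPM above 1 (13739), a quasi-likelihood test of genotype and Benjamini-Hochberg adjustment over all of them, with a threshold of 0.05. Confidence intervals of 95% used the fitted SE. DESeq2 1.42.0 was an alternative, together with other scalings, no filter, a replicate block, a muscle score as a covariate and leaving out each mouse. Single genes were also compared by exact permutation over 252 assignments (two-sided, scipy 1.17.1), and correlations by 100000 permutations. The edgeR script was tested on simulated data. Of 41249 identifiers, 41163 were in GENCODE M21, which gave symbols, coordinates and exon lengths. No pair of libraries agreed within sampling noise (lowest chi-square per gene 5.03), so each mouse counted once. The study's paper describes the WT controls as littermates, but which mice shared a litter is not in the labels, so litter was not in the fit.

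Named genes were the 10 members, the pathway genes at an unadjusted p under 0.05, the 2 most abundant of each list, and the 3 genes most correlated with Atf4 and with Ddit3. Eif2ak4, Slc7a11, Slc7a5 and Gfral were named after their values were seen. The members and lists were chosen with earlier results of these data known.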

Additional observations from a re-analysis of the deposited data

Results flagged for a closer look

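Within each genotype, the highest and lowest mouse of every member were compared with the others by Dixon's gap test (95% level, critical ratio 0.71 for 5 mice). Of 20 groups examined, 2 had a mouse apart, and chance alone flags about 1 in 20. For Chac1, Axl KO mouse 5 had 2.63 CPM where the next knockout had 1.08 CPM (gap of 0.757 of the range). This mouse had 3156 CPM of skeletal muscle markers, the highest of the knockouts, and the fewest reads. For Gdf15, Axl KO mouse 3 had 1.75 CPM, from 15 reads, where the next knockout had 0.463 CPM (gap of 0.735 of the range). Among the knockouts, mouse 3 also held the highest Trib3, Psat1, Phgdh and Ddit3 and the most reads (8214841), while its Atf4 (98.7 CPM) lay inside the range of both genotypes.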

How the results depend on the processing

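Under every alternative run, no member and no pathway gene had an adjusted p under 0.05. Over all genes the count of calls was 1 in each edgeR fit and 9 with DESeq2. Axl remained called in every fit without 1 mouse. The median r between members was 0.13, and it was also 0.13 on deviations from genotype means. It was 0.12 when each pair left out the 2 mice farthest from the median of its first gene, so the mice left out differed between pairs. With the muscle score as a covariate, the log2 fold change of Got1 was 0.75 in place of 0.34 (unadjusted p = 0.0028, adjusted p = 0.73, edgeR). In the same fit, the log2 fold change changed sign for Chac1 (0.27), Psat1 (0.0755) and Gpt2 (0.0891). Without the 2 Axl KO mice lowest in muscle markers, an alternative chosen after seeing the data, it changed sign for Psat1 (0.0673), Gpt2 (0.0671) and Eprs (-0.00086). The cause was not tested. Leaving out 1 mouse at a time gave log2 fold changes from -0.13 to 0.0304 for Atf4, -0.82 to 0.14 for Chac1, -0.25 to 0.13 for Psat1, -0.0649 to 0.0513 for Ppp1r15b, -0.0359 to 0.0455 for Eprs, -0.0421 to 0.11 for Nfe2l2, -0.10 to 0.50 for Got1 and -0.0038 to 0.0399 for Hsp90b1. It gave -0.42 to -0.21 for Ddit3, -0.68 to -0.20 for Trib3, -0.38 to -0.13 for Phgdh, -0.25 to -0.04 for Sesn2 and 0.10 to 0.20 for Asns, which kept their signs.

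The replicate numbers did not pair the mice: correlations of same-numbered deviations were -0.18, 0.37, 0.04, 0.05 and -0.36, and 2 of 10 mice were closest to the mouse of their own number. With the replicate block the count of calls over all genes was again 1, and Ddit3 had a log2 fold change of -0.33. Depth limits Chac1, Fgf21 and Gdf15, where single reads move the values.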
